A study of Apostichopus japonicus with 12 samples.

Results

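The 10 gene models followed here are described as heat shock cognate 70 (HSC70). They were measured under heat stress in intestines of Apostichopus japonicus, an edible sea cucumber. The deposited table describes 14 of its 30221 gene models (predicted genes) as heat shock cognate, and the 10 with the highest mean FPKM over all 12 libraries are the subject here. FPKM is meant to count sequenced fragments relative to gene length and to the depth of the library. The models were thus chosen by their measured level, the mean over heated and control animals together, which favours a model that is high in any of the groups, and their rank by level is given only as a description.

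HSC70 is the HSP70 chaperone that animal cells make without heat. It holds and releases unfolded stretches of protein in cycles driven by ATP, with DnaJ proteins (J-domain proteins, also called HSP40) delivering clients and starting ATP hydrolysis and with BAG-domain proteins and other exchange factors ending the cycle. In mammalian cells it also strips clathrin from coated vesicles and carries proteins to the lysosome for chaperone-mediated autophagy, whereas its close relatives named HSP70 are made mainly under heat and other stress.

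The animals weighed about 100 g and each library holds the intestine of 1 animal, with 3 animals in each of 4 groups. Animals of the 30 °C group were taken once the water had stood at 30 °C for 6 h, and those of the 26 °C groups once it had stood at 26 °C for 48 h or for 6 h. Warming ran at 2 °C per hour, so the 30 °C animals had also been warmed for longer. Control animals stayed at 18 °C, carry no time in the labels, and serve as the controls of both the 6 h and the 48 h animals. The 12 libraries held between 1788303 and 3956056 reads on genes. The sum of FPKM ran from 562397 to 3014690 per library, with the highest sum in 30 °C animal 3. The deposited values did not follow the depth in reads on genes. For 3 reads on a model of a kilobase they gave 0.394 FPKM in control animal 3 and 2.06 FPKM in 30 °C animal 3. Those libraries held 3713358 and 3182338 reads on genes, and the factor used was not given in the sources used here. Digestive enzyme models were present in the labelled tissue: of 108 models on an intestine list, 80 had a mean of at least 0.5 FPKM and 6 were at 0 in every library, and a trypsin-like serine protease led with a mean of 907 FPKM (BSL78_00549). In whole intestine, fewer cells of a type and less RNA per cell cannot be told apart. Counts on near-identical copies can be split between them or lost by the counting, and strand use in counting was not given, so the level of any single copy is uncertain.

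The 14 models lie on 4 scaffolds in runs of neighbouring copies. The 10 models fall on these 4 scaffolds, with 4 on MRZV01000071.1, 3 on MRZV01000654.1, 2 on MRZV01000243.1 and 1 on MRZV01000387.1. Positions below are on the scaffolds of the deposited table, whose genome build was not given in the sources used here. Coding lengths, in bases, run from 324 to 2040. Only BSL78_16847, with 680 codons, has the length of a whole HSP70 protein by itself, and the other 9 hold between 108 and 363 codons. All 10 carry the HSP70 family tag of the table, as do 29 models in all. The 3 cognate models without the tag (BSL78_11971, BSL78_11974 and BSL78_16848) are 261 bases long each and held 0, 3 and 0 reads over all libraries.

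**Figure D1:**
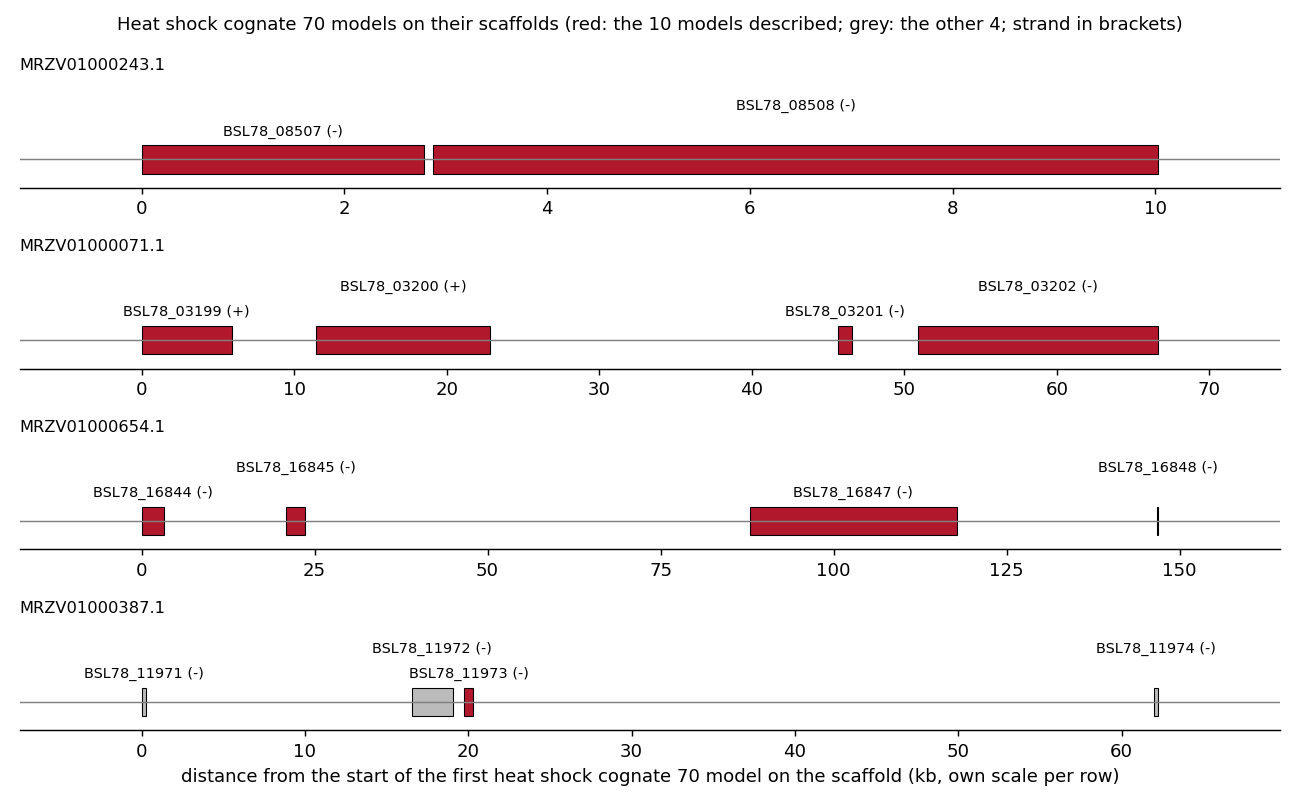
Positions of the 14 heat shock cognate models on their 4 scaffolds, with one panel per scaffold and the distance along it in kilobases from the first cognate model. Bars span each model's start to end, red for the 10 models described and grey for the other 4, with the strand in brackets, and each row has its own scale. BSL78_08507 and BSL78_08508 lie 82 bases apart, while the other neighbours among the 10 models are separated by 4303 to 64272 bases.

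BSL78_08507 and BSL78_08508 on scaffold MRZV01000243.1 were the most abundant by a wide margin. They had means of 563 and 253 FPKM over the 12 libraries, against 26.9 FPKM for the next model, BSL78_03199. BSL78_08507 ranked first of the 10 in 12 of 12 libraries and BSL78_08508 ranked second in 11 of 12, and together they made up between 70.3% and 94.3% of the summed FPKM of the 10. Both lie on the minus strand, at positions 79886 to 82676 and 82759 to 89917, with 82 bases between them. Their coding lengths are 975 and 984 bases, 653 codons when added. Whether they are separate genes or pieces of one was not tested.

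BSL78_08507 held 861, 1132 and 321 FPKM in the 30 °C animals 1 to 3, 266, 394 and 404 FPKM in the 26 °C 48 h animals, and 822, 985 and 1002 FPKM in the 26 °C 6 h animals, against 210.0, 128 and 236 FPKM in the 18 °C controls. In FPKM as deposited, every heated animal stood above every control, and the 48 h animals stood below all 6 h animals at 26 °C. As a share of reads on genes, the 30 °C and 48 h animals overlapped the controls, and the 48 h animals overlapped the 6 h animals. BSL78_08507 held 455 of 3182338 reads in 30 °C animal 3, against 527 of 3109296, 453 of 2665272 and 1755 of 3713358 in controls. In 26 °C 48 h animals 1 and 3 it held 493 of 1788303 and 2247 of 2629072, against 1499 of 2095221 in 26 °C 6 h animal 1. The group means were 771 ± 413, 355 ± 76.9 and 936 ± 99.6 FPKM at 30 °C, at 26 °C for 48 h and at 26 °C for 6 h, against 192 ± 56.3 FPKM in controls (SD, n = 3 each). The ratio of means to control was 4.03 at 30 °C, 1.85 at 26 °C for 48 h and 4.89 at 26 °C for 6 h.

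BSL78_08508 held 519.9, 500.2 and 141 FPKM in the 30 °C animals, 142, 142 and 161 FPKM in the 26 °C 48 h animals, and 263, 379.7 and 576 FPKM in the 26 °C 6 h animals, against 53.7, 36.2 and 119 FPKM in the controls. As for its neighbour, no heated animal overlapped the controls in FPKM as deposited. On that scale the 48 h animals lay below all 6 h animals at 26 °C. As a share of reads on genes, every heated group overlapped the controls, and the 48 h animals overlapped the 6 h animals. Control animal 3 held 892 of 3713358 reads, against 202 of 3182338 in 30 °C animal 3 and 484 of 2095221 in 26 °C 6 h animal 1. The group means were 387 ± 213, 148 ± 10.8 and 406 ± 158 FPKM, in the same order of heated groups, against 69.7 ± 43.7 FPKM in controls (SD, n = 3 each).

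Neither model of this pair passed the test across all genes. Expression was tested with limma on log2(FPKM + 1) over 18729 gene models, with Benjamini-Hochberg adjustment at 0.05, so log2 changes are on that scale, which shrinks those of weakly expressed models. At 30 °C against control the log2 change was 1.87 (SE 0.57, limma adjusted p = 0.229) for BSL78_08507 and 2.42 (SE 0.64, limma adjusted p = 0.156) for BSL78_08508. After 6 h at 26 °C against control it was 2.32 (SE 0.57) and 2.63 (SE 0.64), both with limma adjusted p = 0.213. After 48 h at 26 °C it was 0.91 and 1.26 against control (limma adjusted p = 1 for both), and −1.42 and −1.38 against 6 h at 26 °C (limma adjusted p = 0.636 and 0.717). At 30 °C against 26 °C, both at 6 h, the log2 differences were −0.46 (SE 0.57, limma adjusted p = 0.788) and −0.22 (SE 0.64, limma adjusted p = 0.930), and the groups overlapped. These differences depend on the scaling: they were −1.49 and −1.24 with every library rescaled to a common sum and −1.36 and −1.13 with voom on the recovered reads, also without a call.

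**Figure D2:**
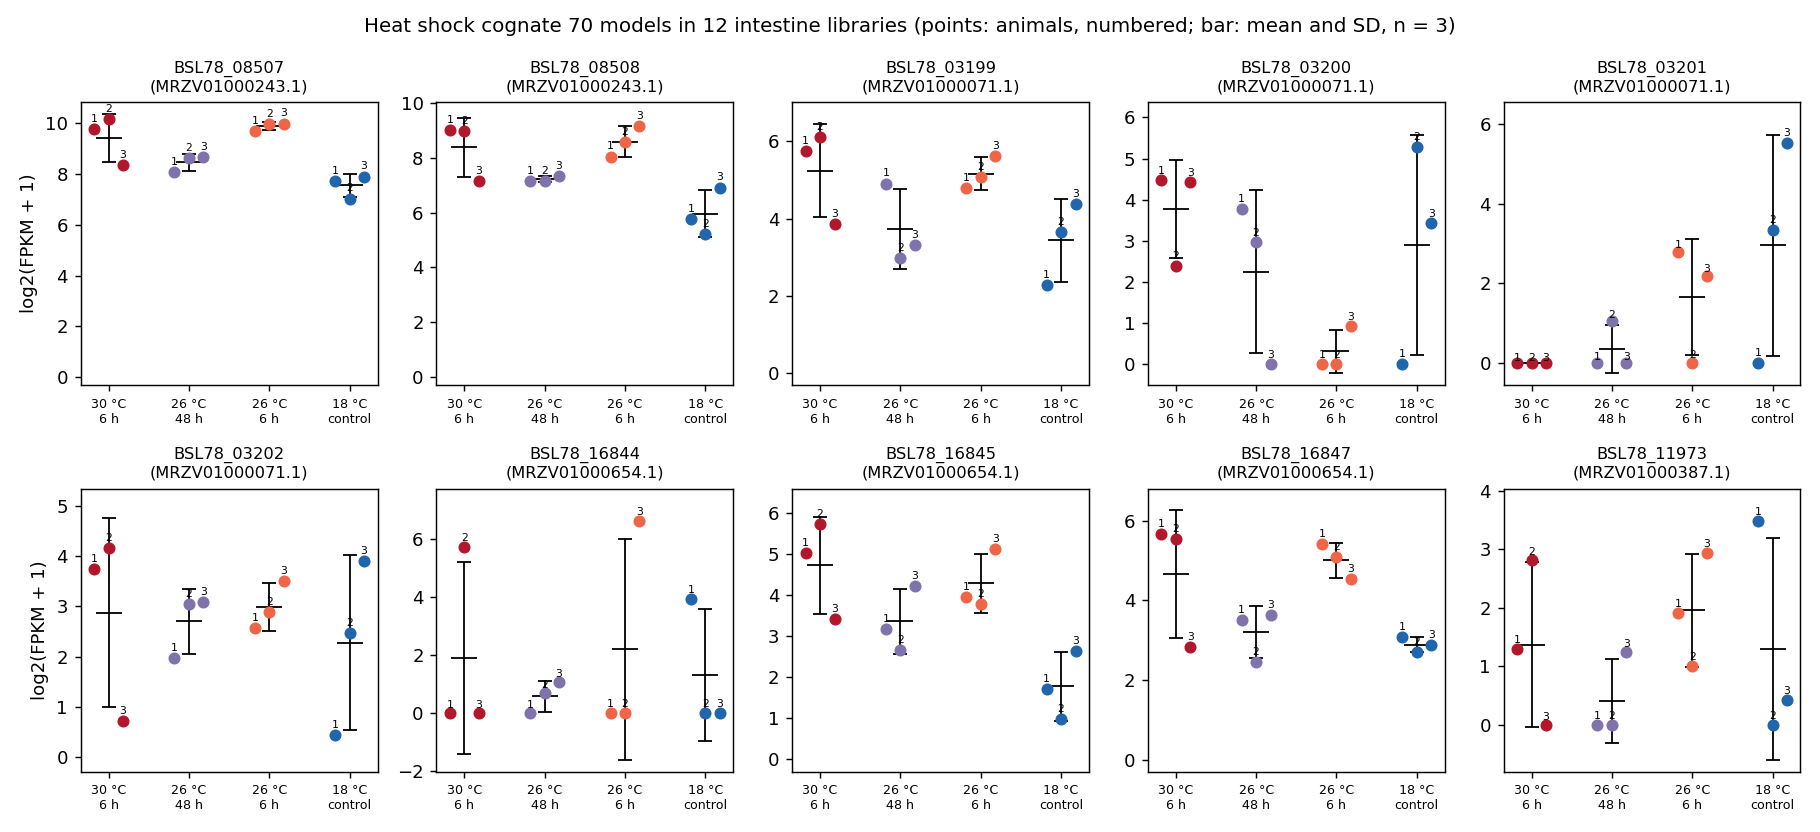
Log2(FPKM + 1) of each of the 10 heat shock cognate models in each of the 12 libraries, one panel per model with its own vertical axis, where points are numbered animals and bars are the group mean and SD on that scale (n = 3). In the panels of BSL78_08507 and BSL78_08508 every heated animal lies above every control, and 30 °C animal 3 lies below the other 30 °C animals.

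Over the 10 models, 0 were called by limma in any of the 5 comparisons or in the F test over the 4 groups, and 0 by limma's voom on the recovered reads. At 30 °C against control, 5 of the 10 were higher and 1 lower at an unadjusted limma p under 0.05, where 5.26% and 5.1% of all tested models were, and adjusted calls covered 0.587% (rose) and 0.0641% (fell) of all models. After 6 h at 26 °C the unadjusted counts were again 5 higher and 1 lower, beside 3.37% and 4.69% of all models, with adjusted calls for 0.0481% (rose) and 0.016% (fell). After 48 h at 26 °C they were 1 higher and 1 lower, beside 2.22% and 2.33%, and limma called 0 models in the whole table, though 852 had an unadjusted p under 0.05. Between 30 °C and 26 °C at 6 h, 1 of the 10 was higher and 0 were lower (6.7% and 4.99% of all models; adjusted calls 0.198% and 0.0481%). Between 48 h and 6 h at 26 °C, 0 were higher and 2 were lower (4.09% and 2.92% of all models; adjusted calls 0% and 0.0107%). In the F test 4 of the 10 had an unadjusted limma p under 0.05, beside 10.4% of all models, and 0.555% of all models were called.

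The ranges of the 3 animals were counted in FPKM as deposited, and which groups overlap depends on that scaling. By reads, 30 °C animal 3 held 455, 202 and 12 on BSL78_08507, BSL78_08508 and BSL78_16845, against 1755, 892 and 34 in control animal 3. Reads on genes were 3182338 and 3713358 in these animals, in that order. In FPKM, 3 of the 10 were higher at 30 °C than in any control (BSL78_08507, BSL78_08508 and BSL78_16845), beside 6.28% of all tested models, and 0 were lower, beside 7.98%. After 6 h at 26 °C, 5 of the 10 stood above all controls (these 3 with BSL78_03199 and BSL78_16847), beside 4.81% of all models, and 0 below, beside 7.15%. After 48 h at 26 °C, the same 3 as at 30 °C stood above all controls, beside 5.84% of all models, and 0 below, beside 4.85%. Against 6 h at 26 °C, the 48 h animals were lower without overlap for 3 of the 10 (BSL78_08507, BSL78_08508 and BSL78_16847), beside 4.76% of all models, and higher for 0, beside 7.87%. Between 30 °C and 26 °C at 6 h, BSL78_03200 alone was higher without overlap, beside 7.01% of all models, and 0 were lower, beside 5.88%. The median log2 change of the 10 was 1.33 at 30 °C and 1.31 after 6 h at 26 °C, against control, where the median of all tested models was −0.07 and −0.08. After 48 h at 26 °C it was 0.30 against control, with 0.03 over all models.

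**Figure D3:**
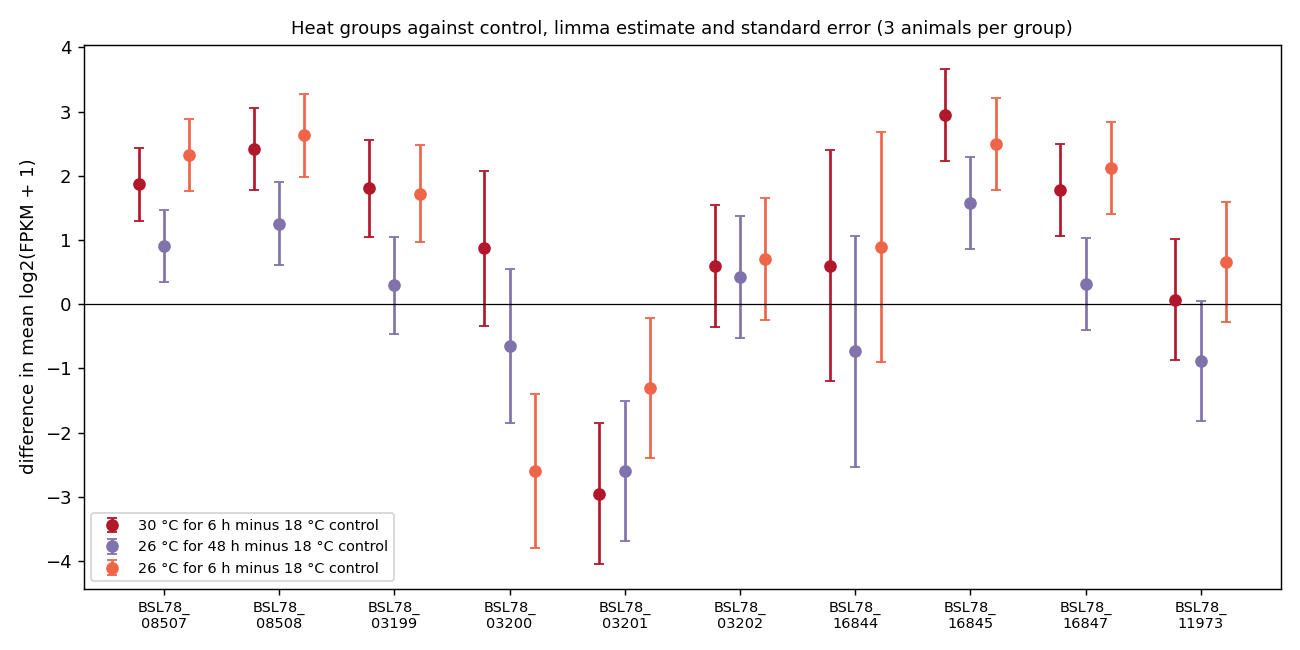
Log2 change of each of the 10 heat shock cognate models against control on the log2(FPKM + 1) scale, for 30 °C 6 h, 26 °C 48 h and 26 °C 6 h, with bars of 1 standard error from limma. The 5 models with the highest mean level lie above 0 in all 3 comparisons with control, BSL78_03201 lies below 0 in all 3, and limma called 0 of the changes.

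Animal 3 of the 30 °C group stood apart from the other animals of its group. Its summed FPKM of the 10 models was 512, against 1550 and 1877 in 30 °C animals 1 and 2, and the 10 models took 0.0230% of its reads on genes (95% Wilson interval 0.0214 to 0.0247%, counting error only), against 0.104% and 0.1005% in the other 30 °C animals. It had reads on 14012 models, against 15801 and 16659. Without this library, limma called 4 of the 10 as higher at 30 °C than in controls, where 1.21% of all models rose: BSL78_08507 by 2.41 (adjusted p = 0.0483), BSL78_08508 by 3.03 (adjusted p = 0.0301), BSL78_16847 by 2.71 (adjusted p = 0.0354) and BSL78_16845 by 3.59 (adjusted p = 0.0269) on the log2 scale. Over all alternatives their adjusted p ran from 0.0483 to 0.743, 0.0301 to 0.479, 0.0354 to 0.688 and 0.0269 to 0.332. The library was singled out here by its low values of these same models, and leaving it out raises their estimates. Calls made without it are thus a description and not a separate test.

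The scaling between libraries also set the size of the 30 °C changes. For the 5 models with the highest means, the log2 changes at 30 °C against control ran from 1.78 to 2.94 as deposited. They ran from 0.55 to 1.79 with every library rescaled to a common sum, where the median of all models moved to −0.85. With limma's voom on the recovered reads they ran from 0.60 to 2.04, with a median of all models of −1.20, and relative to that median from 1.80 to 3.24. All 5 stayed above 0 under these scalings and under quantile scaling, which gave 0.71 to 2.81. The same 5 ran, in 30 °C against 26 °C 6 h animals, from −0.46 to 0.44 as deposited, from −1.49 to −0.52 with a common sum, where the median of all models was −0.52, and from −1.36 to −0.47 with voom, where it was −0.73. As a share of reads on genes, the 10 models took 0.0760% ± 0.0459 at 30 °C, 0.0928% ± 0.0412 after 48 h and 0.151% ± 0.0401 after 6 h at 26 °C, and 0.0470% ± 0.0346 in controls (SD, n = 3 each). The share after 6 h at 26 °C, from 0.106 to 0.184%, lay above all controls, which ran from 0.0238 to 0.0868%, whereas that at 30 °C overlapped the controls.

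Scaffold MRZV01000654.1 carries BSL78_16844 (positions 29291 to 32511), BSL78_16845 (50136 to 52950) and BSL78_16847 (117223 to 147094), all on the minus strand, with 1 hypothetical protein between BSL78_16845 and BSL78_16847. BSL78_16845 and BSL78_16847 stood higher in most heated animals than in controls, while BSL78_16844 was seen in a few libraries only. BSL78_16845 held 31.6, 51.5 and 9.68 FPKM at 30 °C, 8.03, 5.32 and 17.7 FPKM after 48 h at 26 °C, and 14.4, 12.8 and 33.4 FPKM after 6 h at 26 °C, against 2.28, 0.973 and 5.24 FPKM in controls. In FPKM as deposited, every heated animal was above every control, and the controls rest on 42 reads in all. By reads, 30 °C animal 3 held 12 of 3182338 reads on genes, against 34 of 3713358 in control animal 3. Its log2 change was 2.94 at 30 °C (SE 0.72, limma adjusted p = 0.106), the highest among the 10 models, with 1.57 after 48 h (SE 0.72, adjusted p = 1) and 2.50 after 6 h at 26 °C (SE 0.72, adjusted p = 0.347), all against control.

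BSL78_16847, the model of full HSP70 length, held 49.5, 45.3 and 6.06 FPKM at 30 °C, 10.3, 4.44 and 11.4 FPKM after 48 h at 26 °C, and 41.4, 32.7 and 22.2 FPKM after 6 h at 26 °C, against 7.43, 5.55 and 6.31 FPKM in controls. In FPKM as deposited, the controls lay within a narrow band, 6.43 ± 0.943 FPKM (SD, n = 3). On that scale 30 °C animal 3 shared the band and the other 30 °C animals exceeded it. By reads the controls were less alike, at 39 of 3109296, 41 of 2665272 and 98 of 3713358 reads on genes. In 30 °C animal 3 the model held 18 of 3182338, a lower share than in any control. The log2 change was 1.78 at 30 °C (SE 0.72, limma adjusted p = 0.394), 0.31 after 48 h (adjusted p = 1) and 2.12 after 6 h at 26 °C (SE 0.72, adjusted p = 0.463) against control. Between 48 h and 6 h at 26 °C it was −1.81 (SE 0.72, limma adjusted p = 0.635), with no overlap between those groups in FPKM as deposited.

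BSL78_16844 was read in 5 of the 12 libraries. It held 0, 52.7 and 0 FPKM at 30 °C, 0, 0.608 and 1.08 FPKM after 48 h at 26 °C, and 0, 0 and 97.2 FPKM after 6 h at 26 °C, against 14.4, 0 and 0 FPKM in controls. Of its 175 reads, 123 came from 26 °C 6 h animal 3 and 37 from 30 °C animal 2. Animals of 1 group thus ranged from 0 to its highest values, and the log2 changes were 0.60, −0.73 and 0.89 against control at 30 °C, at 26 °C for 48 h and at 26 °C for 6 h, each with a standard error of 1.80.

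Scaffold MRZV01000071.1 carries 4 copies in a row with no other model between them: BSL78_03199 (positions 1094483 to 1100395) and BSL78_03200 (1105934 to 1117304) on the plus strand, and BSL78_03201 (1140107 to 1141067) and BSL78_03202 (1145371 to 1161143) on the minus strand. Their values differed between animals and copies, and the direct comparison of the copies is given further on. BSL78_03199 held 53.2, 67.8 and 13.6 FPKM at 30 °C, 29.0, 6.96 and 8.91 FPKM after 48 h at 26 °C, and 26.6, 33.0 and 48.1 FPKM after 6 h at 26 °C, against 3.86, 11.6 and 19.9 FPKM in controls. In FPKM as deposited, its animals at 26 °C for 6 h stood above all controls (log2 change 1.72, SE 0.76, limma adjusted p = 0.596). The 30 °C animals overlapped the controls (log2 change 1.81, SE 0.76, limma adjusted p = 0.412). By reads, 26 °C 6 h animal 1 held 45 of 2095221 reads on genes, against 137 of 3713358 in control animal 3.

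BSL78_03200, 5538 bases further along, held 21.4, 4.26 and 20.6 FPKM at 30 °C, 12.7, 6.82 and 0 FPKM after 48 h at 26 °C, and 0, 0 and 0.886 FPKM after 6 h at 26 °C, against 0, 37.9 and 9.69 FPKM in controls. The 30 °C libraries held 67 of its reads in all, whereas the 26 °C 6 h libraries held 3 and the controls 183. The 30 °C animals were above all 26 °C 6 h animals, with a log2 difference of 3.46 (SE 1.20, limma adjusted p = 0.273). The controls themselves spread from 0 to 37.9 FPKM, and the log2 change after 6 h at 26 °C against them was −2.60 (SE 1.20, limma adjusted p = 0.618).

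BSL78_03201, a short model of 122 codons, held 0, 0 and 0 FPKM at 30 °C, 0, 1.08 and 0 FPKM after 48 h at 26 °C, and 5.84, 0 and 3.50 FPKM after 6 h at 26 °C, against 0, 9.06 and 44.9 FPKM in controls. Most of its reads, 125 of 148, came from control animal 3. With a floor of 3 reads in each 30 °C library, its mean at 30 °C was at least 3.85-fold lower than in controls, a bound that rests on that animal. The fitted log2 change at 30 °C was −2.95 (SE 1.09, limma adjusted p = 0.353) and −1.67 without control animal 3 (limma adjusted p = 0.668).

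BSL78_03202 was read in all 12 libraries. It held 12.4, 17.0 and 0.631 FPKM at 30 °C, 2.90, 7.24 and 7.57 FPKM after 48 h at 26 °C, and 4.91, 6.41 and 10.3 FPKM after 6 h at 26 °C, against 0.357, 4.57 and 14.1 FPKM in controls. All groups overlapped, and its log2 changes against control, 0.59, 0.42 and 0.71, were smaller than their standard error of 0.95.

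The lowest of the 10, BSL78_11973 (scaffold MRZV01000387.1, positions 429930 to 430532, minus strand), held 33 reads over all libraries. It had 1.46, 6.01 and 0 FPKM at 30 °C, 0, 0 and 1.37 FPKM after 48 h at 26 °C, and 2.78, 1.01 and 6.67 FPKM after 6 h at 26 °C, against 10.1, 0 and 0.342 FPKM in controls. With a mean of 2.48 FPKM it fell just inside the 10, and its neighbour BSL78_11972, 673 bases away, fell just outside with a mean of 2.12 FPKM. The order by level below the first pair was not firm: in controls the other 8 models had means between 2.83 and 18.0 FPKM, and ordered by control mean, each of the 8 overlapped with the next. BSL78_16847 and BSL78_16845, neighbours by mean over all libraries, did not overlap in controls, at 5.55 to 7.43 and 0.973 to 5.24 FPKM.

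Tandem copies were compared directly by the difference of their log2(FPKM + 1) in each library, which asks whether 2 neighbours respond to heat unequally. A pair is 2 models that follow each other on a scaffold among those of the same informative description, at any distance. Other models may lie between them, and both need a mean of at least 0.5 FPKM. The table holds 999 such pairs, of which 7 are heat shock cognate pairs (6 within the 10 models and 1 with BSL78_11972). By limma over the 999 pairs, 0 of the 7 passed the adjusted threshold in any comparison or in the F test, as did 0 of all 999, which is 0%. In the F test 3 of the 7 had an unadjusted limma p under 0.05, beside 6.31% of all pairs, and all 3 lie on scaffold MRZV01000071.1, where each shares a model with the next. Of the 7 pairs, 2 had an unadjusted limma p under 0.05 at 30 °C against control, beside 6.31% of all pairs, 1 after 48 h at 26 °C, beside 4.5%, and 1 at the 6 h time of 26 °C, beside 5.71%. Between 30 °C and 26 °C at 6 h there were 2, beside 7.81%, and between 48 h and 6 h at 26 °C there were 2, beside 5.81%.

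On that scaffold, the difference of BSL78_03199 minus BSL78_03200 ran from −0.56 to 3.71 on the log2 scale at 30 °C and from 0.03 to 3.31 after 48 h at 26 °C. It was 4.78, 5.09 and 4.70 after 6 h at 26 °C, against −1.63 to 2.28 in controls, so the 26 °C 6 h animals lay above all others. With 0, 0 and 3 reads of BSL78_03200 in those animals, their difference is set mainly by the level of BSL78_03199 and by the pseudocount of 1 FPKM, and is not a measured ratio. On this scale the fitted change after 6 h at 26 °C against control was 4.32 (SE 1.18, limma adjusted p = 0.781). The F test over the 4 groups gave a limma adjusted p = 0.588, and an exact permutation test of the same statistic over the 12 libraries gave an unadjusted p = 0.0696.

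BSL78_03200 exceeded BSL78_03201 by 4.48, 2.40 and 4.43 on the log2 scale at 30 °C, whereas the difference ran from −2.77 to 0 after 6 h at 26 °C. The groups did not overlap, and the change of the ratio between them was 5.11 (SE 1.17, unadjusted p = 0.000667, limma adjusted p = 0.322). Controls spread from −2.10 to 1.95. The F test over the 4 groups gave a limma adjusted p = 0.588, and the exact permutation test an unadjusted p = 0.0255 among 7 pairs tested, where the smallest p it can give is 6.494e-05. For BSL78_03201 against BSL78_03202 the ratio changed relative to control by −3.54 at 30 °C (SE 1.01, limma adjusted p = 0.412) and by −3.02 after 48 h at 26 °C (SE 1.01, limma adjusted p = 0.910), with an exact permutation p = 0.0648 over the 4 groups. Both differences that involve BSL78_03201 are likewise set by the pseudocount where it has few reads, with none at 30 °C and 2 after 48 h.

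The abundant pair kept nearer to a fixed ratio, on 19555 and 8878 reads over all libraries. The models on scaffold MRZV01000071.1 held between 148 and 841 reads each, and the part of read depth in this contrast was not tested. BSL78_08507 exceeded BSL78_08508 in all 12 libraries, by means of 1.03 at 30 °C, 1.23 after 48 h and 1.27 after 6 h at 26 °C, against 1.58 in controls, on the log2 scale. The change against control was −0.55 (SE 0.59) at 30 °C, −0.35 (SE 0.59) after 48 h and −0.31 (SE 0.59) after 6 h at 26 °C, and the exact permutation p over the 4 groups was 0.427. For BSL78_16845 against BSL78_16847 the mean difference was 0.05 at 30 °C, 0.16 after 48 h and −0.73 after 6 h at 26 °C, against −1.11 in controls (exact permutation p = 0.222). The pair BSL78_16844 and BSL78_16845 gave an exact permutation p = 0.627 and the pair BSL78_11972 and BSL78_11973 an exact permutation p = 0.575.

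**Figure D4:**
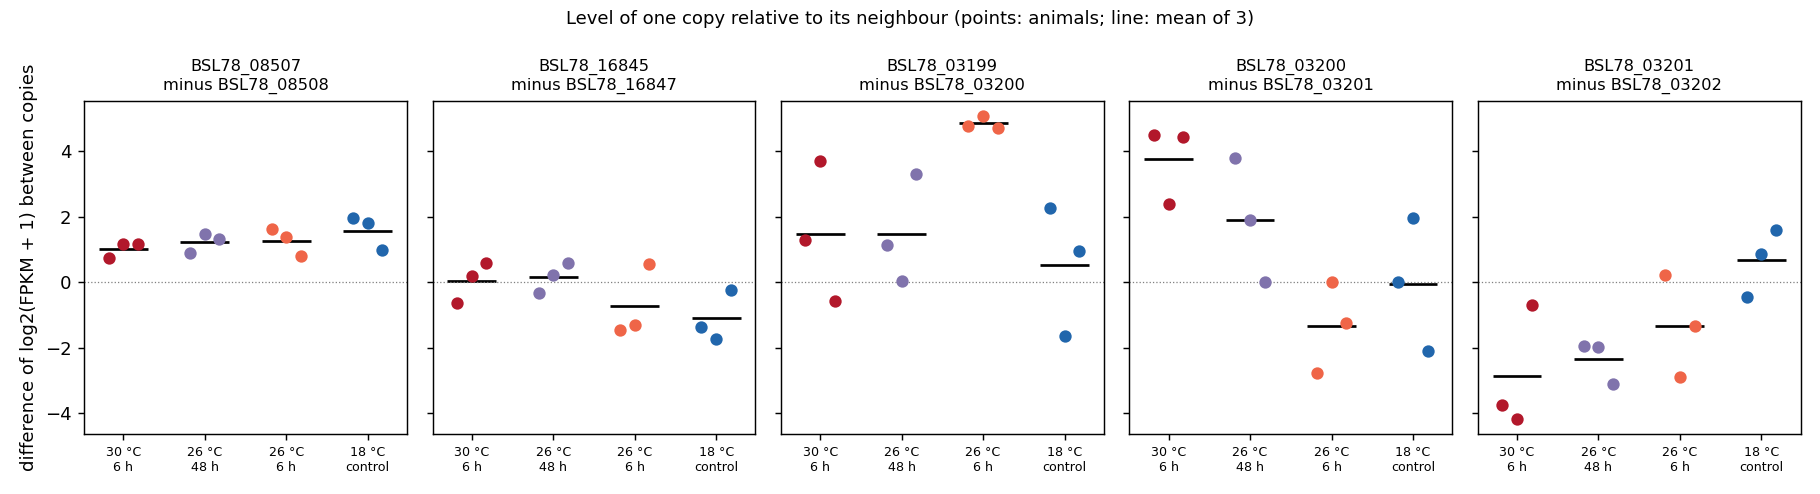
Difference of log2(FPKM + 1) between neighbouring heat shock cognate copies in each library for 5 of the 7 pairs, with groups along the horizontal axis, a point for each animal and a line at the mean of 3. The ratio of BSL78_08507 to BSL78_08508 lies between 0.73 and 1.95 in all 12 libraries. Those on scaffold MRZV01000071.1, which rest on far fewer reads, spread over several log2 units.

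The cognate models were set beside the 12 models that the table describes as heat shock protein 70 or heat shock 70 kDa protein. These names take in the heat-made forms of other animals but were matched by words alone. The 12 also hold models described as 70 kDa protein 14-like (BSL78_05125), 13-like (BSL78_30334) and 12A-like (BSL78_27101). Their means were 8.92, 0.165 and 0.119 FPKM. The summed FPKM of the cognate models was 1550, 1877 and 512 at 30 °C, 471, 568 and 613 after 48 h at 26 °C, and 1181, 1451 and 1801 after 6 h at 26 °C, against 302, 234 and 456 in controls. The sum of the HSP70 models was 111098, 222973 and 97306 at 30 °C, 1236, 385 and 574 after 48 h at 26 °C, and 2417, 4933 and 23418 after 6 h at 26 °C, against 26.4, 40.4 and 188 in controls. Cognate models thus made up 0.911% ± 0.431 of both sums at 30 °C, 46.3% ± 16.7 after 48 h and 20.9% ± 12.9 after 6 h at 26 °C, against 82.7% ± 10.8 in controls (SD, n = 3 each). No test was made of these sums, whose members were chosen with results known.

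**Figure D5:**
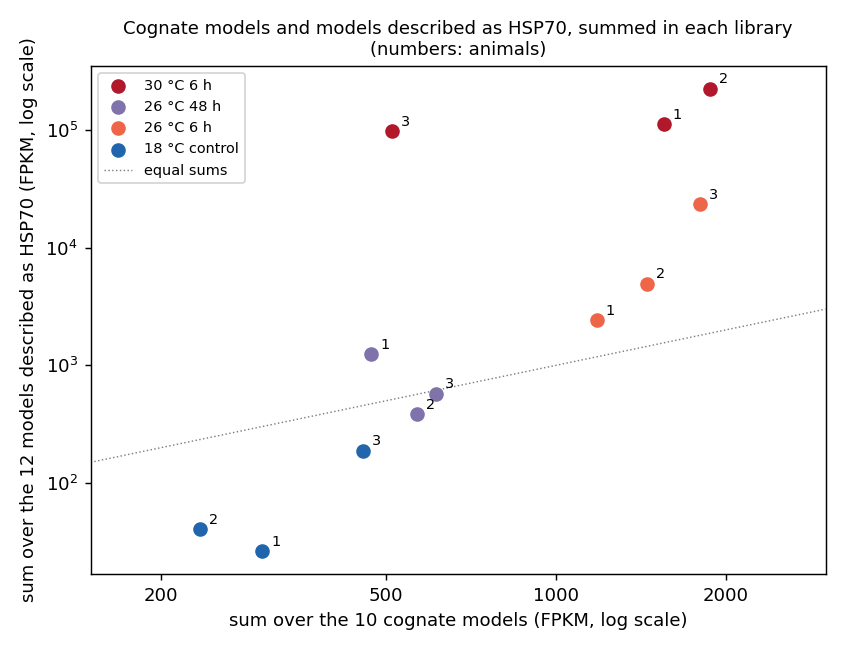
Summed FPKM of the 10 heat shock cognate models (horizontal, log scale) and of the 12 models described as HSP70 (vertical, log scale) in each library, with the animals numbered and a dotted line of equal sums. The 3 animals at 30 °C lie far above the line, between 97306 and 222973 FPKM on the vertical axis, and the 3 control animals lie below it.

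Of the 12 HSP70 models 10 could be tested, and limma called 8 as rising and 0 as falling at 30 °C against control, where 0.587% of all models rose. After 6 h at 26 °C 2 rose, beside 0.0481% of all models, and after 48 h 0 did. Their median log2 change was 9.48 at 30 °C, 3.09 after 48 h and 6.24 after 6 h at 26 °C. The largest change at 30 °C was that of BSL78_02917, at 31158 ± 5987 FPKM at 30 °C against 6.64 ± 9.06 FPKM in controls (SD, n = 3 each), a log2 change of 12.76 (limma adjusted p = 0.00013). Both models called after 6 h at 26 °C, BSL78_15519 and BSL78_15518, had log2 changes of 8.39 and 6.81 (limma adjusted p = 0.000938 and 0.0461). Leaving out single libraries gave between 5 and 9 called at 30 °C (5 without 30 °C animal 1, and 7 and 9 without animals 2 and 3) and between 1 and 4 after 6 h at 26 °C, and limma fitted to the groups compared alone called 3 and 0.

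Partners of the HSP70 cycle, together with co-chaperones of HSP90, were taken as 1 list by words in their descriptions. The words did not take in BSL78_03223 (97 kDa heat shock protein) or BSL78_18393 (Hyou1 protein), which carry the HSP70 family tag. Of 52 partner models 47 were tested, and 5 rose and 0 fell at 30 °C, beside 0.587% and 0.0641% of all models, with a median log2 change of 0.60, against −0.07 over all models. The 5 were a BAG family regulator 3 (BSL78_05946, 9.89), which helps HSP70 release its client, a DnaJ subfamily B member 1-like model (BSL78_01137, 9.12) and a DnaJ protein-like 1 model (BSL78_01136, 8.52), which deliver clients, a stress-induced-phosphoprotein 1-like model (BSL78_07970, 5.51), which bridges HSP70 and HSP90, and an activator of the HSP90 ATPase (BSL78_20250, 5.28), with log2 changes at 30 °C in brackets. Both HSP90 models rose at 30 °C, BSL78_26676 by 6.13 (limma adjusted p = 0.00495) and BSL78_27325 by 5.49 (limma adjusted p = 0.0139). After 6 h and 48 h at 26 °C, 0 of the partners and 0 of the HSP90 models were called. At 6 h this depended on the setting for a few: HSP90 model BSL78_26676, at 4203 ± 666 FPKM after 6 h at 26 °C against 109.9 ± 47.7 FPKM in controls (limma adjusted p = 0.0516), was called without 30 °C animal 2 or 3, with array weights or with a minimum mean of 5 FPKM. Partner BSL78_20250 was called with array weights, with that minimum and without 30 °C animal 3, where BSL78_07970 was called too. The 30 °C counts varied with the libraries: 3 partners were called without 30 °C animal 1, without 30 °C animal 2 or without control animal 1, 10 without 30 °C animal 3 (where 1.21% of all models rose) and 1 in a limma fit of the groups compared alone. Of the HSP90 models 0 were called without 30 °C animal 1, after rescaling to a common sum or in the fit of the groups alone.

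Of the HSP70 relatives of organelles, 0 of 3 were called in any comparison. Without 30 °C animal 3, BSL78_16330 was called at 30 °C and after 6 h at 26 °C against control. The endoplasmic reticulum form, described as 78 kDa glucose-regulated protein-like (BSL78_16330), held 777 ± 728 FPKM at 30 °C, 313 ± 141 FPKM after 48 h and 736 ± 199 FPKM after 6 h at 26 °C, against 64.1 ± 34.3 FPKM in controls. Its log2 change was 3.04 at 30 °C (limma adjusted p = 0.177) and 3.62 after 6 h at 26 °C (limma adjusted p = 0.177). The mitochondrial forms BSL78_29428 and BSL78_00450 had log2 changes of 0.67 and 0.52 at 30 °C. Of 10 models matched by words for clathrin coats and their uncoating, 0 were called, with log2 changes between −1.35 and 0.83 at 30 °C. The words also took in clathrin linker models, among them the lowest, BSL78_03893, described as clathrin heavy chain linker domain-containing protein 1.

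Likeness to the members with the highest levels was measured by the correlation of log2(FPKM + 1). Only models with an informative description and a mean of at least 5 FPKM were compared. All cognate models, the neighbouring copies included, were left out. These correlations are a description over 12 libraries that share the same depth, scaling and group structure. For BSL78_08507 the highest Pearson r belonged to a DPH3-like model (BSL78_21247, r = 0.966, Spearman rho = 0.951), followed by an HSP90 co-chaperone Cdc37-like model (BSL78_11299, r = 0.945), a zinc finger protein (BSL78_02329, r = 0.935), a further Cdc37-like model (BSL78_29596, r = 0.931) and a regulator of chromatin subfamily A member 5 (BSL78_18924, r = 0.931). For BSL78_08508 the highest was a DnaJ-like subfamily B member 3 (BSL78_04610, r = 0.954). It was followed by another chromatin regulator of that description (BSL78_15491, r = 0.9505), BSL78_11299 (r = 0.949), a model described by the Tpr2a domain of Hop (BSL78_07969, r = 0.948) and BSL78_29596 (r = 0.946).

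BSL78_11299 stood at 322 FPKM at 30 °C, 75.2 FPKM after 48 h and 417 FPKM after 6 h at 26 °C, against 35.0 FPKM in controls, as group means. Cdc37 guides kinases to HSP90. For BSL78_03199 the order was a model of subunit alpha of the cytosolic chaperonin TCP1, a ring that folds actin and tubulin (BSL78_25056, r = 0.918), BSL78_15491 (r = 0.882), an NS1A-binding protein-like model (BSL78_21385, r = 0.869), TCP1 subunit epsilon (BSL78_13178, r = 0.868) and a ubiquitin-activating enzyme (BSL78_06818, r = 0.868).

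Of the 5 models of other description that flank the copies, 4 were tested and limma called 0 of them in any comparison, while BSL78_16846, at a mean of 0.0411 FPKM, was too low to be tested. The nearest to BSL78_08507 outside the pair is an alpha-mannosidase 2x model (BSL78_08506), at 12.2 ± 7.94 FPKM at 30 °C against 2.13 ± 0.795 FPKM in controls (log2 change 1.95, limma adjusted p = 0.194). The others were 3 hypothetical proteins (BSL78_08509, BSL78_03203 and BSL78_16846) and a sperm-tail PG-rich repeat protein (BSL78_03198).

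Of the marker lists of other cell types, those of muscle, neurons and coelomocytes differed between some groups. The share of reads on 51 muscle models, 1 of them at 0 in every library, was 0.0814 to 0.273% at 30 °C, 0.238 to 0.651% after 48 h and 0.108 to 0.203% after 6 h at 26 °C, against 0.236 to 0.296% in controls, so the 26 °C 6 h animals overlapped with neither the 48 h animals nor the controls. The share on 78 neuron models, 15 of them at 0, was 0.0038 to 0.0137% at 30 °C, 0.0191 to 0.0290% after 48 h and 0.00883 to 0.0124% after 6 h at 26 °C, against 0.00974 to 0.0203% in controls. That on 22 coelomocyte models, 4 of them at 0, was 0.0463 to 0.0494% at 30 °C, 0.0538 to 0.0628% after 48 h and 0.0204 to 0.0469% after 6 h at 26 °C, against 0.0243 to 0.150% in controls. For both lists the 48 h animals overlapped with neither the 26 °C 6 h animals nor the 30 °C animals, while the controls overlapped with every heated group. Major yolk protein 2 (BSL78_17355, mean 64469 FPKM) led a list of 13 models named germ line. Whether that list marks germ cells in this tissue was not tested. The share of reads on it was 8.83 to 20.2% at 30 °C and 5.19 to 17.4% after 48 h. It was 17.2 to 30.1% after 6 h at 26 °C, against 10.4 to 29.5% in controls, and all groups overlapped. The share on the intestine list also overlapped between all groups, at 0.0943 to 0.535% over all libraries. The part of these lists in the differences of the cognate models between groups was not tested.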

How the data were processed

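Intestine RNA of 12 animals was sequenced on an Illumina HiSeq after messenger RNA purification, per the labels' protocols. The authors deposited FPKM values per gene model with coordinates, description and length, per the file headers. The genome build and the tools for alignment and counting: not given in the sources used here. Reads were recovered from FPKM times length, which came out as whole steps, within 0.05 of a read, for 100% of values. Lengths are multiples of 3 for 94.04% of models and are called coding lengths. Value columns of other samples numbered 0, and a RefSeq gene table matched 0 of its identifiers, so no sequence is shown.

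Models with a mean of at least 0.5 FPKM (18729, including all 10 members) were tested on log2(FPKM + 1) with limma 3.58.1 in R 4.3.3, with a mean per group over 12 libraries, 8 residual and 5.652 prior degrees of freedom, two-sided, with Benjamini-Hochberg adjustment. Copy pairs were tested alike on their difference (999 pairs, 5.717 prior degrees of freedom), beside exact permutation over 15400 arrangements, two-sided through the F statistic. The fits were run on simulated data with libraries scaled by read depth and with larger changes than most members showed. That run does not measure how the tests do at smaller changes. All members and the models just outside were named, with up to 4 called models per list (all 5 partners called were named) and the nearest flanking models. For the top 3 members the 5 most alike models were named, among non-cognate models with an informative description and a mean of at least 5 FPKM. Members and lists were chosen with earlier results of these data known. Replicate numbers were checked as pairs. Wilson intervals and the floor of 3 reads cover counting error only.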

Additional observations from a re-analysis of the deposited data

How the results depend on the processing

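Each of 50 log2 changes of single models was recomputed under 21 alternatives, 1045 values in all, of which 991 kept direction and side of the threshold, 4 newly passed it and 50 changed sign. The count of called members at 30 °C against control was 0, and 0 to 4 over fits that each left out a library, with 4 only without 30 °C animal 3; in the other comparisons, and for the copy ratios, 0 were called under every alternative run. The 4 that passed are given with that library above. The sign changes were all among values with no call. At 30 °C against control, rescaling to a common sum gave −0.38 for BSL78_03200, −0.42 for BSL78_03202 and −0.32 for BSL78_11973, and voom gave −0.47 for BSL78_03202 and −0.36 for BSL78_11973. After 48 h at 26 °C against control, array weights gave −0.13 for BSL78_03199 and voom gave 0.11 for BSL78_16844. Between 30 °C and 26 °C at 6 h, a common sum gave −0.90 for BSL78_03199 and −0.52 for BSL78_16845, voom −0.83 and −0.47, quantile scaling −0.14 for BSL78_03199, and array weights 0.011 for BSL78_16847 and 0.21 for BSL78_03202. Between 48 h and 6 h at 26 °C, BSL78_03202 was at 0.14 with a common sum and 0.33 with voom. The cause was not tested.

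Leaving out single libraries moved the log2 change at 30 °C against control from −1.31 to 1.92 for BSL78_16844, −0.58 to 2.06 for BSL78_03200, −0.33 to 1.67 for BSL78_03202 and −0.65 to 1.16 for BSL78_11973. After 6 h at 26 °C against control it moved from −1.31 to 2.21 for BSL78_16844 and −0.21 to 1.53 for BSL78_03202. After 48 h against control it moved from −0.29 to 0.77 for BSL78_03199, −1.39 to 0.58 for BSL78_16844, −2.10 to 0.54 for BSL78_03200, −0.50 to 1.24 for BSL78_03202 and −1.53 to 0.20 for BSL78_11973. Between 30 °C and 26 °C it moved from −0.83 to 0.082 for BSL78_08507, −0.54 to 0.40 for BSL78_08508, −0.35 to 0.77 for BSL78_03199, −0.83 to 0.59 for BSL78_16847, −0.056 to 1.09 for BSL78_16845, −2.21 to 1.92 for BSL78_16844, −0.76 to 0.97 for BSL78_03202 and −1.31 to 0.10 for BSL78_11973. Between 48 h and 6 h it moved from −2.73 to 0.58 for BSL78_16844 and −0.50 to 0.085 for BSL78_03202.

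No pairing of animals by replicate number was seen: deviations of same-numbered animals correlated between −0.18 and 0.15, and 5 of 12 libraries correlated best with their own number. The labels do not say what the numbers mark, and this check could miss a shared batch. With the number as a replicate block, 0 of the 10 members and 0 copy ratios were called, and 93 models of the table at 30 °C and 3 after 6 h at 26 °C, against control. A minimum mean of 5 FPKM left out BSL78_11973, and voom was not run on copy ratios. In these data, 3 reads on a model of a kilobase correspond to 0.394 to 2.06 FPKM, so copies seen at a few FPKM rest on a handful of reads.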
